A study of Mus musculus with 18 samples.

Results

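The lacrimal glands (LGs) of 6M old NOD.H-2b males were compared with those of 4M old NOD.H-2b males, 3 mice at each age, so that 6 of the 18 mice of the series enter the main comparison. All 18026 of the 54232 counted genes that had enough counts in these 6 mice were tested. The comparison asks whether disease in the gland levelled off or progressed between both ages, as read from gene families, pathways and the spread between mice. The NOD.H-2b strain is NOD.B10Sn-H2b/J, a mouse model of primary Sjögren syndrome, and BALB/cJ males served as the control strain. Every group of the series, in each strain at 2M, 4M and 6M of age, was 3 male mice, and total RNA of the whole gland was sequenced after ribosomal RNA was removed. The replicates are separate mice. The 6 libraries held between 49480781 and 62623939 counts, and no pair of replicates was close to a duplicate, since their counts differed by a chi-square of 28.9 to 83.4 per gene.

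Tear fluid comes mainly from the LG, whose acinar cells secrete proteins such as secretoglobins, lipocalins and lactoferrin and whose ducts carry the fluid to the eye. In Sjögren syndrome, lymphocytes gather around the ducts and can form B and T cell areas, and plasma cells settle between the acini. The V gene of an antibody chain is spliced to the constant gene of its class, so that V and constant gene counts together read the antibody-making cells of a gland.

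The labelled tissue matched its markers. Scgb2b7, a secretoglobin, was between 44309 and 65430 CPM (the count of a gene scaled to the size of its library) in all 6 mice. The tear protein lactoferrin (Ltf) was between 545 and 776 CPM, and the epithelial adhesion gene Epcam was between 84.7 and 103 CPM. Markers of neighbouring tissue were low: the 4 tested skeletal muscle genes summed to between 1.16 and 2.17 CPM, and the 4 tested adipocyte genes to between 3.57 and 8.80 CPM. CPM values throughout are scaled by TMM over the 18 mice, log2 fold changes come from edgeR's fit of the 6 mice alone, and a gene was called changed at an adjusted p under 0.05 and at least a 2-fold change. An error given after a log2 fold change is its standard error, with 3 mice per age.

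Between 4M and 6M, 1 gene passed this threshold, which is 0.00555% of the genes tested. It rose. It was Ighv9-4, a V gene of the antibody heavy chain (ENSMUSG00000094322, chr12:114299961-114300389 on the minus strand of GRCm38). None was called lower in the main edgeR fit. At an unadjusted p under 0.05, 1196 genes were higher (6.63% of those tested) and 1294 were lower (7.18%), and 189 of the higher and 92 of the lower genes also differed by at least 2-fold. DESeq2, run on the same counts, called 28 genes higher and 26 lower. Without 4M replicate 1, edgeR called 62 genes higher and 35 lower, and without 4M replicate 3 or 6M replicate 3 it called 0. The median log2 fold change over all genes was 0.01, with quartiles of -0.16 and 0.22. All 3 mice at 6M lay above all 3 at 4M in 1603 genes (8.89%) and below them in 2164 genes (12%).

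The width of the intervals shows what 3 mice per age could resolve. For 13369 genes (74.2%) the 95% interval of the fold change lay wholly within 2-fold either way, and among the 13766 genes with a mean of at least 1 CPM this held for 12457 (90.5%). For the other 4657 genes the interval reached past 2-fold, and for 16 of these, Ighv9-4 among them, it lay wholly beyond 2-fold. The median distance from an estimate to either end of its interval was 0.37 on the log2 scale.

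**Figure D1:**
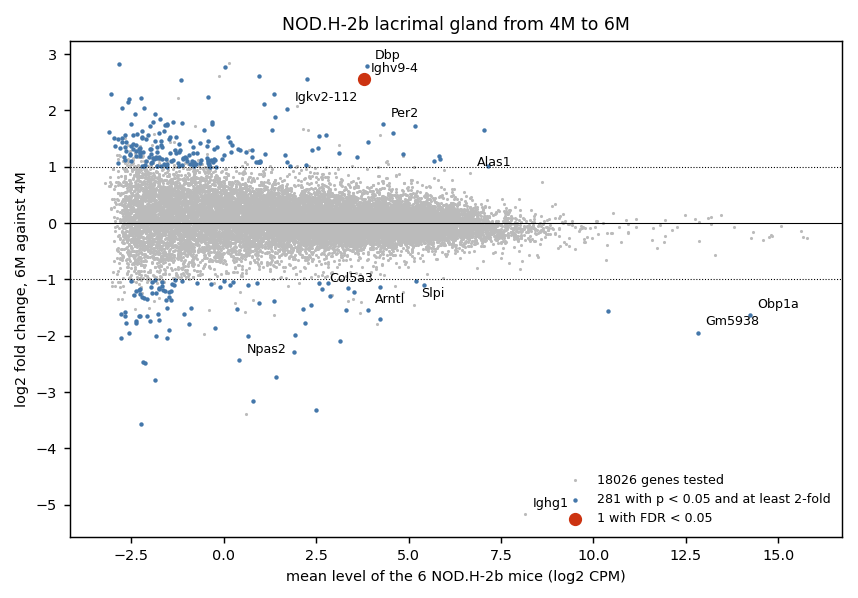
Each point is 1 of 18026 genes, with the mean level of the 6 NOD.H-2b mice (log2 CPM) on the x axis and the log2 fold change of 6M against 4M on the y axis, and dotted lines at 2-fold. The red point, Ighv9-4, is the gene with an adjusted p under 0.05, and blue points are genes with an unadjusted p under 0.05 and at least a 2-fold change.

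The V segment of Ighv9-4 is shown beside that of Ighv9-3, its nearest relative among the V genes, because reads from such similar genes can be assigned to either. Both are from GENCODE M21 on GRCm38, whose sequence is that of C57BL/6, and Ighv9-3 lies at chr12:114140692-114141122 on the minus strand. Capitals mark the 24 of 294 bases at which the genes differ (91.8% identity).
Ighv9-4: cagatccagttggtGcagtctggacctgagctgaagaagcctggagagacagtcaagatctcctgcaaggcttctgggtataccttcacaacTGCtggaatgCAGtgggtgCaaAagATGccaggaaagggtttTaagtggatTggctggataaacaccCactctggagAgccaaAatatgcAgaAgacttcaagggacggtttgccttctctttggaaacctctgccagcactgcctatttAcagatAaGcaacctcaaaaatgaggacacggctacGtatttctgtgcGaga
Ighv9-3: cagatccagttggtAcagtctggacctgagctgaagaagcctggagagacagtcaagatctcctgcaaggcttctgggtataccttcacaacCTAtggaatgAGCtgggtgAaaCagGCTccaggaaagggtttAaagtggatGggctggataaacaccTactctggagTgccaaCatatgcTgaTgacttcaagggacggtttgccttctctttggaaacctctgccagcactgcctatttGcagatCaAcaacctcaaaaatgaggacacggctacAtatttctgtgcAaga

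Ighv9-4 was at 3.92, 3.94 and 4.22 CPM at 4M and at 17.0, 28.2 and 25.8 CPM at 6M. The groups did not overlap, and the log2 fold change was 2.56 ± 0.19 (95% interval 2.12 to 2.99, adjusted p = 0.00872). At 2M it was at 5.94, 13.5 and 1.93 CPM, so that 2M mice lay both above and below the 4M mice. Its share of all counts on heavy chain V genes was between 0.444% and 0.622% at 4M and between 2.16% and 3.78% at 6M. In the 2M glands, which held far fewer V gene counts, the share was 7.24%, 6.13% and 1.11%. The call was lost without 4M replicate 3 (adjusted p = 0.106) and without 6M replicate 3 (0.0683), in the fits of 9 NOD.H-2b mice (0.172) and all 18 mice (0.0945), and with glmTreat (0.0648), which tests against the 2-fold change itself, while the log2 fold change was between 2.40 and 2.74 over all settings.

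The rest of the small Ighv9 family did not move together. Ighv9-1 had a log2 fold change of 2.55 (adjusted p = 0.321), Ighv9-3 of 0.35 and Ighv9-2 of -0.93. Ighv9-2 and Ighv9-1 are 90.5% and 89.5% identical to Ighv9-4, whereas the nearest gene of another family, Ighv1-84, is 69.6% identical. How reads with several matches were counted is not given in the sources used here, so the split of counts within the family is uncertain.

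V genes differed widely in both directions around a middle near 0. Of 92 heavy chain V genes tested, 11 were higher and 11 lower at an unadjusted p under 0.05, with a median log2 fold change of -0.09 and quartiles of -0.93 and 0.69. Of 81 kappa V genes, 6 were higher and 7 lower, with a median of -0.05. Over all genes, 6.63% were higher and 7.18% lower at that threshold, and the kappa counts lie near these shares. Summed over the family, heavy chain V genes were between 679 and 888 CPM at 4M and between 682 and 835 CPM at 6M. The summed kappa V genes were between 740 and 938 CPM at 4M and between 668 and 853 CPM at 6M. The groups overlapped in both sums.

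Single V genes stood out at their own levels. Igkv2-112 was at 1.26, 1.22 and 1.40 CPM at 4M and at 7.29, 4.34 and 4.16 CPM at 6M, a log2 fold change of 2.03 ± 0.24 (adjusted p = 0.0726). Ighv1-82 was at 10.0, 17.0 and 8.35 CPM at 4M and at 33.4, 38.6 and 35.5 CPM at 6M (1.60 ± 0.26, adjusted p = 0.285). In the other direction, Ighv1-84 was at 12.2, 3.40 and 15.1 CPM at 4M and at 1.35, 0.745 and 0.935 CPM at 6M (-3.32 ± 0.62, adjusted p = 0.317). Igkv14-130 was at 7.84, 7.55 and 3.16 CPM at 4M and at 0.784, 1.76 and 1.27 CPM at 6M (-2.29 ± 0.42, adjusted p = 0.312). None of these 4 genes overlapped between ages, and none passed the adjusted threshold in the main fit. Igkv2-112 and Ighv1-82 were picked among genes without overlap. Without overlap, 8 of 92 heavy chain V genes lay above and 9 below. For kappa V genes it was 6 and 7 of 81, beside 8.89% above and 12% below over all genes.

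**Figure D2:**
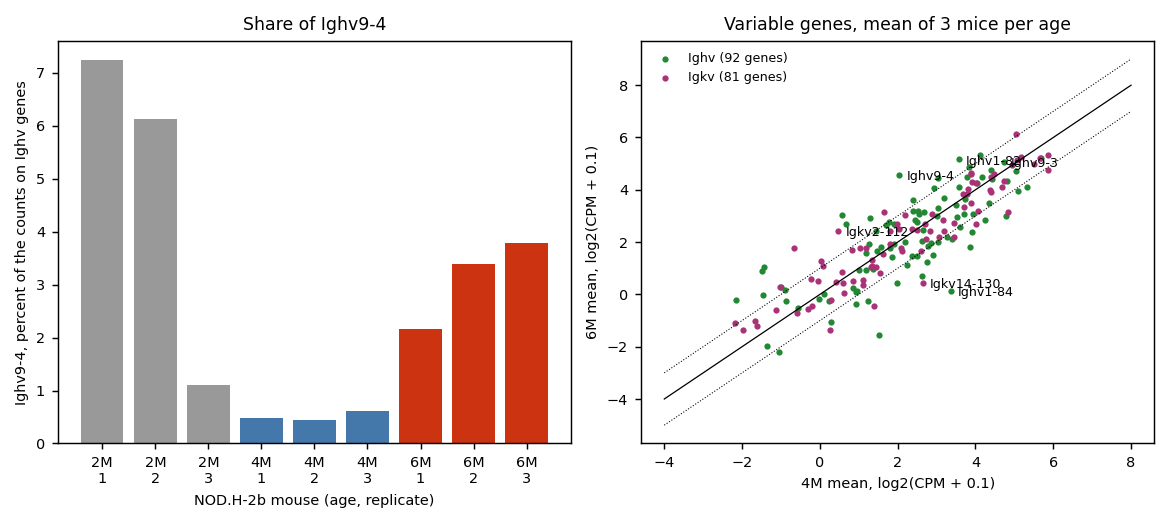
Left, bars give the share of Ighv9-4 among the counts on heavy chain V genes in each NOD.H-2b mouse (percent). Right, each point is a V gene with its mean of 3 mice at 4M (x axis) and 6M (y axis) on the log2(CPM + 0.1) scale, with a solid line at equal levels and dotted lines at 2-fold. The 3 bars at 6M, from 2.16% to 3.78%, stand above the 3 bars at 4M.

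The order of heavy chain V genes by level was more alike between mice at 6M than at 4M. Over 101 heavy chain V genes, Spearman's rho between pairs of mice was between 0.67 and 0.77 within 4M. It was between 0.83 and 0.88 within 6M and between 0.70 and 0.77 across the ages. Over all genes it was between 0.98 and 0.99 within an age. These are descriptions across genes of single libraries, and genes are not independent replicates.

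Constant genes name the antibody class. Of 8 heavy constant genes, 3 were higher at an unadjusted p under 0.05 (6.63% of all genes), none was lower, and none passed after adjustment. Ighg2c was at 78.2, 63.5 and 49.9 CPM at 4M and at 340, 141 and 117 CPM at 6M (log2 fold change 1.65 ± 0.45, adjusted p = 0.321). Ighg2b was between 74.5 and 105 CPM at 4M and between 146 and 250 CPM at 6M (1.01 ± 0.22). Ighm, the gene of the IgM chain, was between 239 and 378 CPM at 4M and between 387 and 590 CPM at 6M (0.74 ± 0.20). The 3 genes did not overlap between ages. Igha, the mucosal class and the most abundant of the 8 at 6M, was between 1399 and 3133 CPM at 4M and between 2065 and 2544 CPM at 6M (-0.07 ± 0.28).

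Ighg1 depended on 1 mouse. It was at 1636, 8.60 and 23.4 CPM at 4M and at 6.50, 30.9 and 8.39 CPM at 6M. The other 5 mice lay between 6.50 and 30.9 CPM, and the ages overlapped. The log2 fold change of -5.16 had an interval from -11.76 to 1.44.

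The lambda light chain genes were the immune list whose level did not overlap between ages. A list's level in a mouse is the mean log2 CPM of its tested genes. It was 3.44, 3.48 and 2.98 at 4M and 4.01, 4.59 and 4.01 at 6M. All 6 tested genes were higher at 6M on average, 4 of them at an unadjusted p under 0.05 (6.63% of all genes), with a median log2 fold change of 0.91. Iglv3 was between 2.93 and 4.77 CPM at 4M and between 6.43 and 8.10 CPM at 6M (0.98 ± 0.19, adjusted p = 0.296). In BALB/c the 6 tested lambda genes had a median of -1.31, 2 of them lower at an adjusted p under 0.05, beside 51 of 16622 genes either way. In edgeR's test of the difference between strains, 5 lambda genes had an unadjusted p under 0.05 (10.1% of all genes), and none passed after adjustment.

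Immune genes as a whole overlapped between ages. Levels in bulk tissue cannot tell fewer cells of a type from less RNA per cell. Of 24 immune lists with 548 tested genes, 23 overlapped, 19 had a median above 0, and 44 genes were higher and 25 lower at an unadjusted p under 0.05. Over all genes, 6.63% were higher and 7.18% lower at that threshold, and the immune counts lie near these shares. After adjustment 1 gene, Ighv9-4, remained.

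B cell genes leaned upward without passing the test in the main fit. All 22 had a fold change above 1, the median log2 fold change was 0.64 with quartiles of 0.38 and 0.71, and 1 gene had an unadjusted p under 0.05. The level of the list was 4.74, 3.93 and 3.75 at 4M and 5.22, 4.27 and 4.63 at 6M. The highest 4M mouse, replicate 1, lay above the lower 2 of the 6M mice. Ms4a1, which encodes CD20, was at 43.6, 22.4 and 19.3 CPM at 4M and at 64.3, 34.0 and 43.1 CPM at 6M (0.74 ± 0.38). For 18 of the 22 genes the interval reached past 2-fold. In a fit with the replicate number as a block, 10 of the 22 passed an adjusted p of 0.05, all higher, beside 317 of 18026 genes. The sources used here state no pairing of mice by replicate number. No gene of the B cell list passed in any other fit that was run, DESeq2 and the fits without a mouse included.

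Genes of lymphoid tissue organization moved by less. The 12 tested germinal centre genes had a median log2 fold change of 0.46 and none at an unadjusted p under 0.05. The 13 genes of lymphoid tissue chemokines and vessels had a median of 0.47. Cxcl13, the chemokine that draws B cells into follicles, was at 15.9, 11.8 and 11.7 CPM at 4M and at 28.2, 14.6 and 15.8 CPM at 6M (0.58 ± 0.26, adjusted p = 0.382). Glycam1, a ligand for L-selectin made by high endothelial venules, was between 4.96 and 6.65 CPM at 4M and between 6.14 and 10.9 CPM at 6M (0.64 ± 0.21). Both genes overlapped between ages.

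Plasma cell genes did not share this lean. Their median was -0.13 over 14 genes, with 3 lower at an unadjusted p under 0.05 (7.18% of all genes), and 13 of 14 intervals lay within 2-fold. Jchain, which joins IgA and IgM into polymers, was between 469 and 685 CPM at 4M and between 530 and 662 CPM at 6M (0.16 ± 0.17). Eaf2 was lower in all 3 mice, at 11.6, 14.9 and 13.5 CPM at 4M and at 9.08, 10.4 and 10.1 CPM at 6M (-0.43 ± 0.12, adjusted p = 0.321).

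T cell genes lay near 0. The 24 genes had a median of 0.05, none had an unadjusted p under 0.05 in edgeR, and 21 intervals lay within 2-fold. Cd4 was at 34.4, 17.5 and 16.9 CPM at 4M and at 33.1, 23.2 and 27.9 CPM at 6M (0.30 ± 0.29). The level of the list ranged over 0.90 log2 units among the 4M mice and over 0.33 among the 6M mice. The cytotoxic list had a median of 0.14 over 16 genes and the T cell receptor V genes -0.04 over 20.

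Antigen presentation and interferon genes lay slightly above 0. The 10 class II genes had a median of 0.31, all above 0 and none at an unadjusted p under 0.05. Cd74, the invariant chain of class II, was at 569, 384 and 372 CPM at 4M and at 710, 412 and 540 CPM at 6M (0.33 ± 0.23). The medians were 0.10 for class I and peptide loading, 0.23 for the interferon gamma axis and 0.07 for the type I interferon response, with no gene of these lists at an unadjusted p under 0.05. All 20 class I intervals lay within 2-fold.

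Among the innate lists, of 20 complement genes 5 were higher at that threshold (6.63% of all genes), among them Serping1, C1s1, C1ra and C7, by between 0.30 and 0.37 on the log2 scale, against a list median of 0.18. Macrophage genes had a median of 0.12 over 19 genes, 1 of them higher, and the median was -0.04 without 6M replicate 1. The TYROBP network of myeloid signaling had a median of 0.28 over 35 genes, 2 of them higher and 1 lower. Il33, an alarmin, was at 6.02, 4.54 and 3.02 CPM at 4M and at 10.2, 6.37 and 7.39 CPM at 6M (0.82 ± 0.26, adjusted p = 0.321). The epithelial chemokine Ccl28, which attracts IgA plasma cells, was at 242, 330 and 416 CPM at 4M and at 154, 222 and 189 CPM at 6M (-0.81 ± 0.22, adjusted p = 0.321). Its ages did not overlap.

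**Figure D3:**
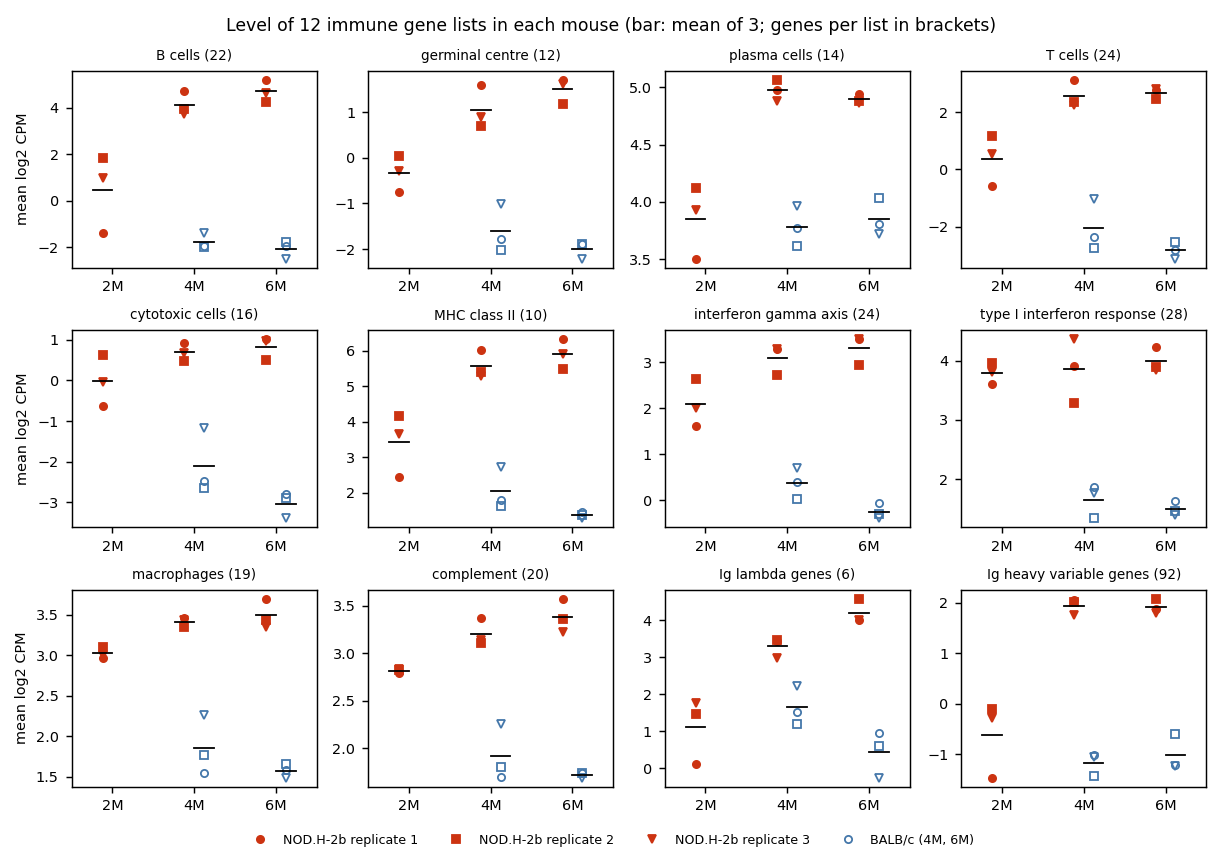
The y axis of each panel is the mean log2 CPM of a gene list in a mouse, at 2M, 4M and 6M for NOD.H-2b (filled) and at 4M and 6M for BALB/c (open), with a bar at the mean of 3 mice. Of the 12 lists, the lambda genes alone separate the 4M from the 6M NOD.H-2b mice.

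The secretory lipocalins held the largest shift in abundant transcripts. Obp1a, an odorant binding protein, was at 34162.5, 22616 and 31199 CPM at 4M and at 5551, 9155 and 13498.5 CPM at 6M. The log2 fold change was -1.63 ± 0.32 (adjusted p = 0.304). Gm5938 was at 13631.5, 9048 and 12258 CPM at 4M and at 1804, 3152 and 4075 CPM at 6M (-1.95 ± 0.30, adjusted p = 0.209). In both genes every 6M mouse lay below every 4M mouse. Their transcripts are 86.4% identical, so shared reads make the split between them uncertain. Obp1b, 72.5% identical to Obp1a, went the other way, from 34.7, 50.8 and 26.9 CPM at 4M to 64.7, 68.9 and 60.7 CPM at 6M (0.79 ± 0.22, adjusted p = 0.321). At 2M Obp1a was between 10471 and 19243 CPM, below every 4M mouse. The 9 lipocalins together had a median of -0.03.

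Secretoglobins, the most abundant family of the gland, summed to between 307721 and 354045 CPM at 4M and between 243471 and 314007 CPM at 6M. The median over 28 genes was -0.25, and 1 gene was lower at an unadjusted p under 0.05. Scgb2b3 was between 3607 and 4163 CPM at 4M and between 2149 and 3202 CPM at 6M (-0.44 ± 0.18, adjusted p = 0.341). Scgb2b7 had a log2 fold change of -0.26 ± 0.18.

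Among tear defence genes, Slpi, a protease inhibitor, was at 116, 23.8 and 16.9 CPM at 4M and at 17.7, 22.1 and 16.9 CPM at 6M, so the high level was that of 4M replicate 1. Reg3g, an antibacterial lectin, was between 0.616 and 1.31 CPM at 4M and at 9.05, 1.61 and 2.08 CPM at 6M (2.30 ± 0.78, adjusted p = 0.336). The 14 genes had a median of -0.18.

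Genes that build the epithelium were more often lower than higher. Of 28, 8 were lower at an unadjusted p under 0.05, with none higher, beside 7.18% lower and 6.63% higher over all genes, and the median was -0.25. Tjp3, a tight junction scaffold, was at 31.4, 44.8 and 43.9 CPM at 4M and at 21.5, 26.6 and 21.8 CPM at 6M (-0.78 ± 0.16, adjusted p = 0.306). Esrp2, a regulator of epithelial splicing, was between 56.5 and 73.0 CPM at 4M and between 34.6 and 46.8 CPM at 6M (-0.63 ± 0.14, adjusted p = 0.317). Neither gene overlapped between ages. The water channel Aqp5 was at 109, 115 and 146 CPM at 4M and at 83.3, 102 and 101 CPM at 6M (-0.37 ± 0.14). The 27 fluid secretion genes had a median of -0.03. The level of the exocytosis list was 4.01, 4.08 and 4.07 at 4M and 3.96, 4.01 and 4.00 at 6M, with every 6M mouse below every 4M mouse by a small margin.

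Of 200 metabolic genes in 7 lists, 49 were lower and 5 higher at an unadjusted p under 0.05, where 7.18% of all genes were lower and 6.63% higher. None passed after adjustment in the main edgeR fit. In edgeR's fit of all 18 mice, 12 of 75 respiratory chain genes and 5 of 24 beta oxidation genes passed, all lower. In that fit 596 of 19117 genes passed as lower. Their shifts were small. For the respiratory chain, 75 nuclear genes had a median of -0.19, with 23 lower and 1 higher, and 74 intervals lay within 2-fold. Fatty acid beta oxidation had a median of -0.20, with 7 of 24 genes lower. The levels of both lists were below those of 4M in all 3 mice at 6M. Cpt1a, which moves long chain fatty acids into mitochondria, was at 45.7, 45.3 and 43.8 CPM at 4M and at 37.0, 38.4 and 37.6 CPM at 6M (-0.25 ± 0.07, adjusted p = 0.321).

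Fatty acid synthesis had a median of -0.16 over 27 genes, with 9 lower and 2 higher. Acacb, an acetyl-CoA carboxylase, was at 12.2, 17.8 and 20.3 CPM at 4M and at 8.86, 9.58 and 10.9 CPM at 6M (-0.77 ± 0.19, adjusted p = 0.320). Fasn, the fatty acid synthase, was at 232, 317 and 438 CPM at 4M and at 168, 240 and 210 CPM at 6M (-0.67 ± 0.25). The groups overlapped for Fasn and not for Acacb. Elovl5, which elongates polyunsaturated fatty acids, was higher, at 17.9, 13.6 and 14.1 CPM at 4M and 24.9, 19.1 and 21.7 CPM at 6M (0.53 ± 0.13). Serine, folate and asparagine synthesis had a median of -0.22 over 16 genes, 5 of them lower. Asns, the asparagine synthetase, was between 42.4 and 56.6 CPM at 4M and between 24.0 and 37.2 CPM at 6M (-0.62 ± 0.18).

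The 77 cytosolic ribosomal protein genes had a median of -0.15, and 46 of them were below in all 3 mice (12% of all genes), 15 at an unadjusted p under 0.05 (7.18% of all genes lower). Of the mitochondrially encoded genes, 7 were tested, with a median of -0.01, and mt-Nd6 was higher, at 58.3, 67.1 and 59.1 CPM at 4M and 78.4, 87.8 and 93.9 CPM at 6M (0.50 ± 0.10, adjusted p = 0.301). Scaling by library size alone moved the median of all genes to 0.18, and on that scale the medians of the plasma cell, exocytosis, TCA cycle and ribosomal protein lists were between 0.01 and 0.03. Relative to all genes they stayed below.

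**Figure D4:**
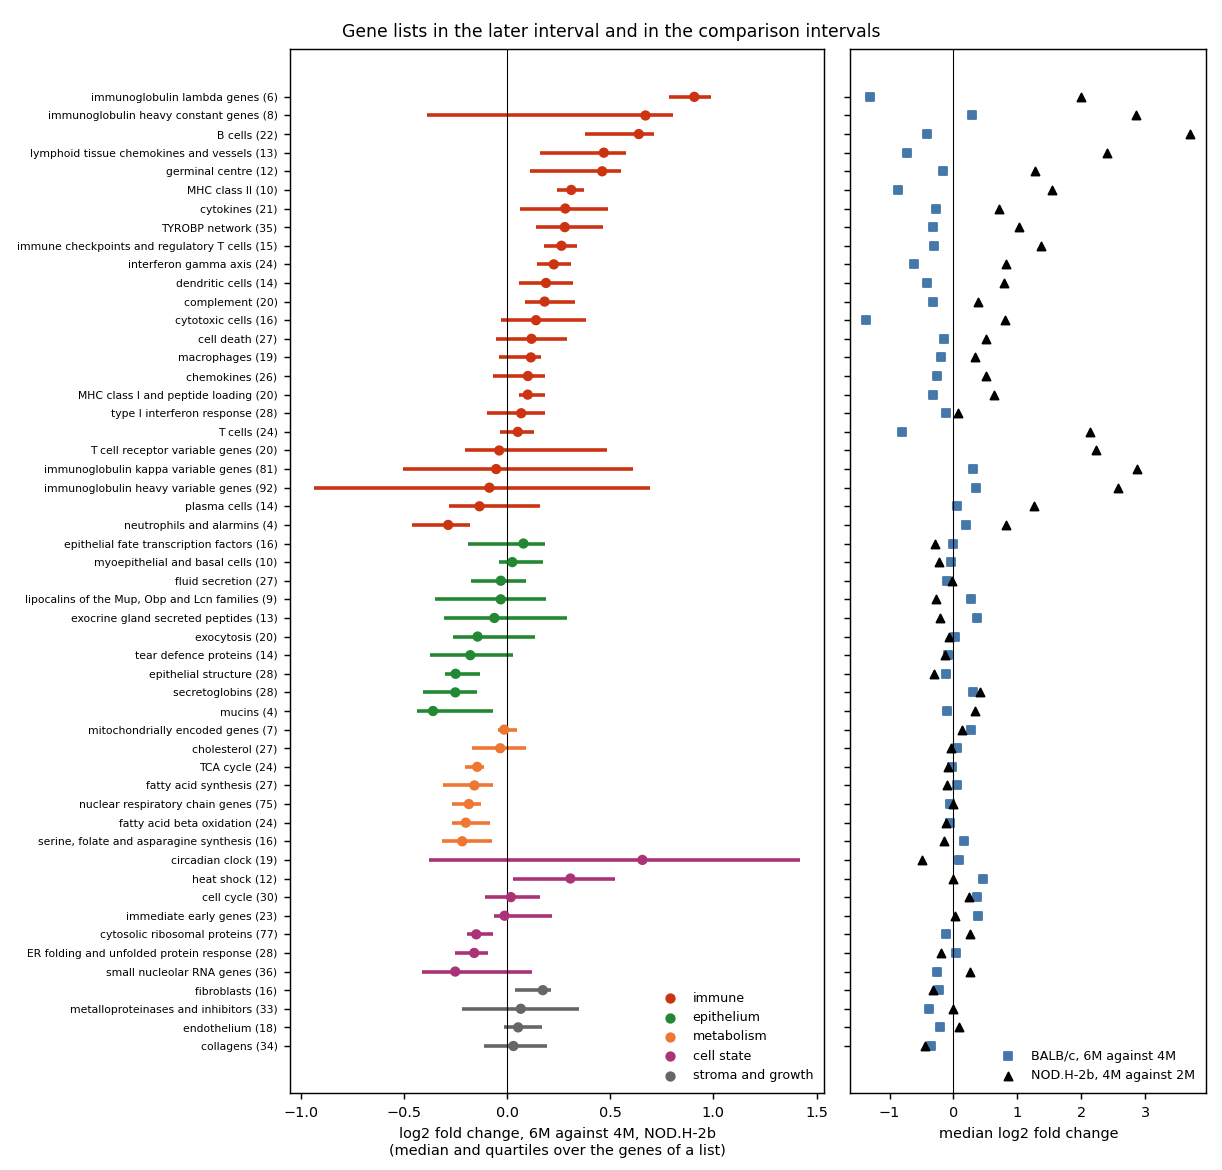
Left, each point is the median log2 fold change of 6M against 4M in NOD.H-2b over the genes of a list (number tested in brackets), and the line spans the quartiles. Right, squares give the same lists in BALB/c from 4M to 6M and triangles NOD.H-2b from 2M to 4M, which shares its 4M mice with the left panel. Most immune lists lie above 0 and the metabolic lists below 0 in the left panel, and the triangles of B and T cell lists lie far to the right.

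Of the 7 cell state lists, the circadian clock had the largest median, 0.66, and the widest quartiles, -0.38 and 1.42. The activators Arntl, Npas2 and Clock drive the Per and Cry repressors and the Nr1d1 and Nr1d2 receptors through the E-box, whose letters are CACGTG. Dbp, Hlf and Tef, which the loop drives in turn, act at D-boxes, where Nfil3 opposes them. Of 19 genes, 10 were higher and 3 lower at an unadjusted p under 0.05, the same 10 above and 3 below without overlap between ages. Over all genes, 6.63% were higher and 7.18% lower at that threshold, and 8.89% lay above and 12% below without overlap. None passed after adjustment in the main edgeR fit. In edgeR's fit of all 18 mice, 3 clock genes passed as higher and 1 as lower, beside 151 and 596 of 19117 genes.

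The promoters of 4 of the genes that were higher are shown around their E-box, as RefSeq gives them on GRCm38.p6. The windows are chr11:69098743-69098828 on the plus strand for Per1, chr15:81802506-81802591 on the plus strand for Tef, chr6:145865528-145865613 on the minus strand for Bhlhe41 and chr3:95882229-95882384 on the minus strand for Ciart. Capitals mark CACGTG.
Per1: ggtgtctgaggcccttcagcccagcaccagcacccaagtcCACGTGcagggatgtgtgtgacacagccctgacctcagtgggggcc
Tef: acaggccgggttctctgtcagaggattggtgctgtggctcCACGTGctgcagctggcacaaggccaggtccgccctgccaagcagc
Bhlhe41: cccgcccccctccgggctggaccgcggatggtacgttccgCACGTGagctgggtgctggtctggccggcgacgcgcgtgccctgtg
Ciart: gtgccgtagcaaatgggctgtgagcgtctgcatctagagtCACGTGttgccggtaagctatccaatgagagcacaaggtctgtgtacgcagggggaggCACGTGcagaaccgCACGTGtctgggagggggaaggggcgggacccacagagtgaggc

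Promoter rows were found for 16 of the 19 clock genes, and not for Per2 and Bhlhe40, among others. Both strands of the window from 250 bases before the start were searched, and no motif searched contains another. CACGTG was found in 5 of the 16 genes (Per1, Cry1, Tef, Bhlhe41 and Ciart) and in 6.86% of 27025 genes, or 6.02% of 32851 promoters. AGGTCA, bound by ROR and Nr1d receptors, was found in 4 (Clock, Per1, Nr1d2 and Nfil3) and in 15.8% of genes. The D-box letters TTATGTAA were found in Per3 alone and in 0.977% of genes, and TTATGCAA in Per1 alone and in 0.829% of genes. A match is a description of these letters and not a measured site.

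Npas2 was at 1.81, 2.11 and 2.86 CPM at 4M and at 0.366, 0.301 and 0.582 CPM at 6M, a log2 fold change of -2.44 ± 0.31 (adjusted p = 0.0839). Arntl, the partner of Clock, was at 15.5, 21.3 and 29.4 CPM at 4M and at 8.63, 7.34 and 6.72 CPM at 6M (-1.54 ± 0.23, adjusted p = 0.241). Nfil3 was at 11.2, 14.8 and 22.5 CPM at 4M and at 6.19, 7.57 and 6.98 CPM at 6M (-1.22 ± 0.25). For these 3 genes every 6M mouse lay below every 4M mouse. Clock, with -0.70, overlapped between ages and had no unadjusted p under 0.05.

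Dbp was at 8.10, 2.31 and 0.821 CPM at 4M and at 27.0, 22.7 and 27.9 CPM at 6M (2.78 ± 0.79, adjusted p = 0.321). Per2 was at 13.7, 5.98 and 7.45 CPM at 4M and at 27.4, 28.9 and 35.6 CPM at 6M (1.76 ± 0.31, adjusted p = 0.306). Per3 was at 28.6, 15.4 and 6.65 CPM at 4M and at 53.4, 54.6 and 58.9 CPM at 6M (1.73 ± 0.50). For these 3 genes every 6M mouse lay above every 4M mouse. Cry1, Cry2 and Nr1d1 overlapped between ages. Nr1d1 was at 29.4, 8.66 and 2.62 CPM at 4M and at 29.1, 29.5 and 28.4 CPM at 6M, so that 4M replicate 1 lay with the 6M mice. Hlf was at 1.75, 1.08 and 0.721 CPM at 4M and at 4.44, 3.05 and 3.74 CPM at 6M (1.66 ± 0.30, adjusted p = 0.241).

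The spread between mice also differed. Over the 19 genes the median SD of log2 CPM was 0.52 among the 4M mice and 0.15 among the 6M mice, against 0.19 and 0.17 over all genes. The 4M mice were not the same on every gene, and replicate 1 was nearest to the 6M mice for Dbp, Per3 and Nr1d1. Without that mouse 11 clock genes passed an adjusted p of 0.05, beside 1.67% of all genes, and with DESeq2 on all 6 mice 10 passed, beside 0.93% of all genes. Collection time of day is not given in the sources used here, and its part in the result was not tested.

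In BALB/c the clock list had a median of 0.08 from 4M to 6M and 0 genes with an adjusted p under 0.05 in edgeR, with 1 at an unadjusted p under 0.05. In BALB/c Npas2 had a log2 fold change of -1.37 (adjusted p = 0.164), Arntl of -1.45 (0.480) and Per2 of 0.83 (0.415), the signs they had in NOD.H-2b. The difference between strains was -1.08 for Npas2, -0.10 for Arntl and 0.92 for Per2, none with an adjusted p under 0.05. Dbp was at 19.9, 8.62 and 11.2 CPM in the 4M BALB/c mice and at 26.7, 31.1 and 5.38 CPM in the 6M mice, so 6M replicate 3 lay below all 4M mice. In NOD.H-2b the 2M mice had 26.7, 26.7 and 46.7 CPM of Dbp, nearer to the 6M than to the 4M mice. For Dbp and Per3 the 4M NOD.H-2b mice lay below the mice of both other ages.

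**Figure D5:**
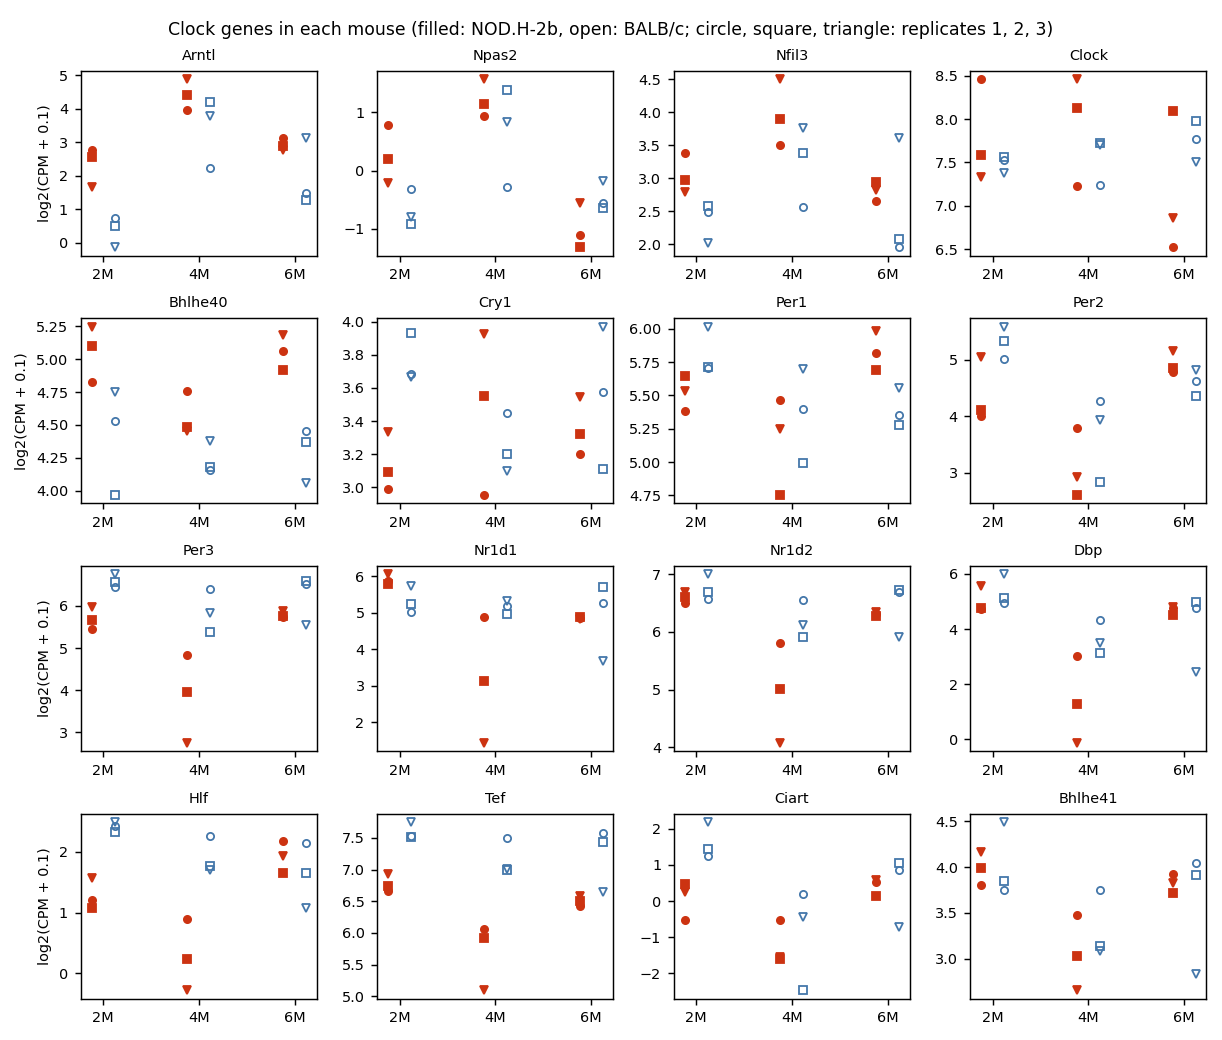
Each panel is a clock gene, with log2(CPM + 0.1) on the y axis and age on the x axis, and each symbol is a mouse (filled NOD.H-2b, open BALB/c). The 4M NOD.H-2b mice lie above the 6M mice for Arntl, Npas2 and Nfil3 and below them for Per2, Per3, Dbp and Hlf.

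Alas1, the first enzyme of heme synthesis, was at 68.9, 66.5 and 78.4 CPM at 4M and at 123, 136 and 135 CPM at 6M (0.89 ± 0.10, adjusted p = 0.0577). Its groups did not overlap. Usp2, a deubiquitinase, was at 14.5, 14.0 and 17.4 CPM at 4M and at 23.6, 26.4 and 29.9 CPM at 6M (0.80 ± 0.12, adjusted p = 0.174). The heat shock list had a median of 0.31, with 6 of 12 genes higher at an unadjusted p under 0.05 (6.63% of all genes), and its level did not overlap between ages. Hspa1b was at 4.38, 1.65 and 3.12 CPM at 4M and at 6.88, 8.09 and 7.28 CPM at 6M (1.29 ± 0.31, adjusted p = 0.320).

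Stromal lists had small medians. Collagens had a median of 0.03 over 34 genes and metalloproteinases with their inhibitors 0.07 over 33. Col5a3, a minor fibrillar collagen chain, was at 9.34, 8.04 and 8.85 CPM at 4M and at 3.10, 5.12 and 3.40 CPM at 6M (-1.17 ± 0.19, adjusted p = 0.209). Timp3, a metalloproteinase inhibitor of the matrix, was at 15.2, 20.01 and 16.4 CPM at 4M and at 28.0, 28.8 and 25.1 CPM at 6M (0.67 ± 0.12, adjusted p = 0.241). Hyal1, a hyaluronidase, was between 11.9 and 14.0 CPM at 4M and between 5.71 and 7.76 CPM at 6M (-0.95 ± 0.14, adjusted p = 0.160). These 3 genes did not overlap between ages. The mast cell list had a median of 0.80 over 6 genes, with levels of -0.13, 0.02 and -0.29 at 4M and 0.76, 0.50 and 0.43 at 6M. Its protease genes Cpa3 and Cma1 were near 1 CPM or below in these mice.

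The preceding interval of the same strain gives the scale of these values. From 2M to 4M, 1061 genes rose (5.97% of 17763 tested) and 111 fell (0.625%). Without 2M replicate 1 the count of genes that rose was 660, without 2M replicate 3 it was 229, without 4M replicate 1 it was 545 and without 4M replicate 2 it was 682, and 67 and 61 fell without 2M replicates 1 and 3. Both intervals share the 4M mice, so their values are set side by side. The B cell list had a median of 3.71 in the earlier interval, with 12 of 22 genes called higher, beside 0.64 with none called in the later. The T cell list had 2.14 with 13 of 24 called, beside 0.05 with none. Class II genes had 1.54 with 8 of 10 called, beside 0.31. Heavy chain V genes had 2.58 with 27 of 90 called, beside -0.09. These lists had risen from 2M to 4M. So had the plasma cell genes, with 1.26 beside -0.13, and the kappa V genes, with 2.88 beside -0.05. The metabolic and epithelial structure lists differed less between the intervals. The medians of the 7 metabolic lists were between -0.15 and 0.14 in the earlier interval, beside between -0.22 and -0.01 in the later. Nuclear respiratory chain genes had -0.01 beside -0.19, and epithelial structure genes had -0.30 beside -0.25.

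The difference between the later and the earlier change was tested on the 9 NOD.H-2b mice. It was higher for 25 genes (0.135% of 18508) and lower for 56 (0.303%) at an adjusted p under 0.05. Of the 56, 54 had risen from 2M to 4M at an adjusted p under 0.05. Immunoglobulin genes were 19 of the 56, and their share among all tested genes was not computed. When 4M replicate 2 or 3 or 6M replicate 2 or 3 was left out, the counts were between 9 and 12 higher and between 22 and 27 lower. All 25 of the former group had fallen from 2M to 4M, and 23 of them had a later change above 0. The difference subtracts the earlier change, so an earlier change of the opposite sign was largely fixed by this selection in both groups. Collagen Col1a1 was between 143 and 159 CPM at 2M, between 40.0 and 51.0 CPM at 4M and between 39.8 and 52.4 CPM at 6M.

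The BALB/c glands of the same ages share no mouse with the NOD.H-2b comparison. In them 3 genes rose and 3 fell from 4M to 6M (0.0361% of 16622 tested), or 22 rose and 5 fell without 6M replicate 3, 8 rose without 6M replicate 1 and at most 1 rose without any other single mouse, and 2583 had an unadjusted p under 0.05 (15.5%). A test of whether the change differed between strains, fitted over the 12 mice, called no gene in edgeR. It gave 1893 genes at an unadjusted p under 0.05 (10.1% of 18741), and DESeq2 called 40. Across 16146 genes tested in both strains, the changes had a Pearson r of 0.10 and a Spearman rho of 0.13, as a description. The B cell list had a median of -0.41 over 11 tested genes in BALB/c and of 0.64 over 22 in NOD.H-2b, the class II list -0.87 over 9 and 0.31 over 10, and the interferon gamma axis -0.62 over 19 and 0.23 over 24, so that the medians cover different genes. Other lists had the same sign in both strains. Epithelial structure had -0.12 in BALB/c beside -0.25 in NOD.H-2b, ribosomal proteins -0.12 beside -0.15, mast cells 0.74 beside 0.80 and heat shock 0.46 beside 0.31. The BALB/c heat shock level was 4.13, 3.53 and 3.99 at 4M and 3.78, 3.93 and 5.49 at 6M. The high level was that of 6M replicate 3, and none of the 12 genes had an unadjusted p under 0.05 in BALB/c. At an unadjusted p under 0.05, 9 of 28 epithelial structure and 35 of 77 ribosomal protein genes were lower in BALB/c, beside 1272 of 16622 genes. Fatty acid synthesis had 0.06 in BALB/c beside -0.16. The smallest p for the difference between strains was that of Alas1, at 0.78 ± 0.13 (adjusted p = 0.245). For Ccl28 it was -1.41 ± 0.26 (adjusted p = 0.470), with 260 to 293 CPM at 4M and 365 to 455 CPM at 6M in BALB/c.

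Variation between replicates was similar at both ages over all genes. The median SD of log2 CPM was 0.19 at 4M and 0.17 at 6M, and the biological coefficient of variation was 0.186 and 0.155. Replicate 1 was the mouse farthest from the others for 41.7% of genes at 4M and for 42.5% at 6M. Among genes with a mean of at least 10 CPM, the most variable at 4M were Ighg1 (SD of 4.02), Nmu, Ighv5-6, Nr1d1 and Dbp, and 8 of the 10 most variable were immunoglobulin or clock genes. At 6M the most variable included Nmu, the secretoglobin Scgb2b12 and Esp31. Nmu, a neuropeptide, was at 1.28, 15.7 and 41.3 CPM at 4M and at 2.12, 14.0 and 3.24 CPM at 6M.

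Among the single mice left out, replicate 1 at 4M moved the count of genes most. With edgeR, leaving it out gave 305 genes with an adjusted p under 0.05, and leaving out any other mouse gave at most 4 genes with an adjusted p under 0.05. With no mouse left out, DESeq2 gave 153 such genes, the replicate block 594 and the fit of all 18 mice 747. The fit of 9 NOD.H-2b mice gave 1. How much of the low count in the main fit is due to 4M replicate 1 was not tested. The part of 4M replicate 1 in single results is given above for the B cell list, Ighg1, Slpi and the clock genes.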

How the data were processed

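Bulk RNA-seq after removal of ribosomal RNA was done on 1 LG sample from each of 18 males. The counts per Ensembl gene were deposited by the authors, who made them with HTSeq from STAR alignments to GRCm38 of reads cleaned with cutadapt. The authors also deposited log2 values of these counts after DESeq2 scaling, which served for a check of scale alone. The strand setting, the annotation release and the handling of reads with several matches are not given in the sources used here. Gene names are those of GENCODE M21, and 0.013% of the counts fell on genes without one.

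The analysis used R 4.3.3, edgeR 4.0.16, limma 3.58.1 and DESeq2 1.42.0. The main fit was edgeR's robust quasi-likelihood test of the 6 mice with TMM and filterByExpr, and the Benjamini-Hochberg method adjusted p over all genes tested. Called genes passed an adjusted p of 0.05 and a 2-fold change. Lists were summarized by counts and medians, with no test of a list. Alternatives were other scalings and filters, DESeq2, glmTreat, wider fits, a replicate block and leaving out each mouse.

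Named genes were the called gene, the 8 genes each way with the smallest p among genes without overlap, at least 2-fold change and 1 CPM, the leading or most abundant members of each list, landmark genes, the top genes of alternatives with more calls and of both tests of a difference, of which a selection is given. Some genes are not reported here. Genes outside this rule, such as further clock genes, were chosen after their values were seen. The comparison and the lists were chosen with earlier results of these data known. P-values measure the spread between 3 mice per group, which was larger than counting error, by a chi-square of at least 28.9 per gene between replicates of the 6 libraries, each of at least 49480781 counts.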

Additional observations from a re-analysis of the deposited data

Results flagged for a closer look

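The later change in NOD.H-2b (4M to 6M) differed from the earlier change (2M to 4M) in 81 genes by a test of the difference itself, at an adjusted p under 0.05 in edgeR, with 25 higher and 56 lower. Both changes rest on the same 4M mice, which enter them with opposite signs. The 5 smallest p-values in the higher direction were those of Sult1d1, a sulfotransferase, with a difference of 4.37 on the log2 scale, Col1a1 with 1.78, Cyp2f2, a cytochrome P450, with 1.23, Alas1 with 1.63 and Col1a2 with 1.28. Sult1d1 was between 5.41 and 7.13 CPM at 2M, between 0.416 and 0.501 CPM at 4M and between 0.567 and 1.04 CPM at 6M. Alas1 was between 105 and 141 CPM at 2M, between 66.5 and 78.4 CPM at 4M and between 123 and 136 CPM at 6M.

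The 5 smallest p-values in the lower direction were those of the small nucleolar RNA Snord17 (-1.69), the kappa V pseudogene Igkv4-56 (-4.71), the small nucleolar RNA Gm24119 (-1.95), Snora23 (-2.58) and the kappa V gene Igkv3-5 (-5.31). Snord17 was between 5.04 and 5.54 CPM at 2M, between 17.7 and 20.5 CPM at 4M and between 18.7 and 22.1 CPM at 6M.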

How the results depend on the processing

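The count of genes called higher from 4M to 6M in NOD.H-2b was 1 in the main fit and 2 with library size only, 8 without a filter on low counts, 28 with DESeq2, 0 with glmTreat, 27 in a fit of all 18 mice and 0 in a fit of 9 NOD.H-2b mice. Leaving out each mouse in turn gave 0 to 62. The count called lower was 0, and 8 without the filter, 26 with DESeq2, 28 with all 18 mice and 0 to 35 without a mouse. The highest values, 62 and 35, came without 4M replicate 1. With the replicate block, 38 genes were called higher and 16 lower. These counts require a 2-fold change. By adjusted p alone, 151 genes were higher and 596 lower with all 18 mice, and 317 and 277 with the replicate block. DESeq2 gave 67 and 86, the fit without a filter 25 and 50, and the fit without 4M replicate 1 154 and 151. The main fit gave 1 and 0, and the fit of 9 NOD.H-2b mice 0 and 1. Same-numbered mice correlated at 0.33, 0.12 and 0.01, and 4M replicate 3 correlated best with 6M replicate 2. Values were centred on the 3 mice of each age, which ties these correlations together. They cannot decide whether same-numbered mice share a batch, and this was not tested. In BALB/c, DESeq2 called 7 higher, and leaving out a mouse gave 0 to 22 higher (22 without 6M replicate 3, 0 without 4M replicate 1) and 2 to 5 lower. From 2M to 4M in NOD.H-2b, it gave 229 to 1149 higher and 61 to 116 lower, both lowest without 2M replicate 3. The strain difference was 18 higher and 22 lower with DESeq2 and 0 to 3 lower without 1 of the 6 NOD.H-2b mice (3 without 4M replicate 1). The later minus earlier difference was 148 higher and 280 lower with all 18 mice, 232 and 441 with DESeq2, and 9 to 28 higher and 22 to 66 lower without a mouse of 4M or 6M, lowest without 4M replicate 2. In these 2 tests the BALB/c and the 2M mice were not left out. The causes were not tested. The count of intervals within 2-fold stayed within 1.5 times its value in every alternative run. Of list medians under alternatives, 481 moved by less than the spread between mice and 50 by more. Library size alone shifted the median of all genes to 0.18. Depth limits genes of low count, whose intervals reach past 2-fold more often than those of genes with a mean of at least 1 CPM.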

Other observations

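Red cell genes were measured as a check of blood left in the gland. The 5 tested erythroid genes summed to between 49.3 and 91.7 CPM at 4M and to between 33.0 and 53.2 CPM at 6M, so the ages overlapped. Their median log2 fold change was -0.67, and 2 of them were lower at an unadjusted p under 0.05 (7.18% of all genes). Of the genes with at least a 2-fold difference and no overlap between ages, Bc1, a brain cytoplasmic RNA that is not translated, was at 1.06, 0.955 and 0.360 CPM at 4M and at 3.53, 3.65 and 3.28 CPM at 6M (log2 fold change 2.12 ± 0.32, adjusted p = 0.174). In BALB/c its log2 fold change was 1.54. Omp, the olfactory marker protein, was at 8.43, 6.78 and 9.23 CPM at 4M and at 3.32, 4.20 and 4.09 CPM at 6M (-1.07 ± 0.16, adjusted p = 0.161).

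Gm14135 was between 1293 and 2408 CPM at 4M and between 428 and 933 CPM at 6M in NOD.H-2b (-1.55 ± 0.35, adjusted p = 0.320), after 156 to 323 CPM at 2M. In BALB/c it was between 10350 and 11433 CPM at 4M and between 11133 and 13656 CPM at 6M.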
